A study of Mus musculus with 21 samples.

Results

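The regions described here are DNase I hypersensitive sites (DHS) that were open at all 3 measured stages of early innate lymphoid cell development, held no TCF1 peak, and were at least 2 times higher in the latest stage, ILCP, than in the earliest, ALP. They were found by merging the peaks of the 3 deposited DHS lists on mouse chromosomes 1 to 19 and X (build mm9) wherever peaks shared at least 1 bp. The merge gave 102313 regions, of which 39851 held a peak of every list. Of these, 3117 overlapped a TCF1 peak and 36734 did not. In each stage a region took the highest pileup among its peaks, the number of extended tags stacked at the summit, expressed per 1000000 of the tags that the peak caller kept for that stage (RPM). In 1574 of the 36734 regions, or 4.28%, the ILCP height was at least 2 times the ALP height. They are called the strengthening regions below. In 2229 regions, or 6.07%, the ALP height was at least 2 times the ILCP height, and these are called the weakening regions. Both groups were chosen by their ALP and ILCP heights, so those heights and their ratio are given as a description, with no test. Among the regions that overlapped a TCF1 peak, 149 (4.78%) strengthened and 127 (4.07%) weakened by the same measure.

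The study followed chromatin opening in progenitors sorted from bone marrow of C57BL/6 mice. ALP cells carried the Tcf7EGFP/+ reporter and were sorted as lineage-negative, Kit+, 2B4+, a4b7-, Flt3high and IL-7Ra+. EILP cells carried Tcf7EGFPnull/+, a null allele of the gene that encodes TCF1, and were sorted as lineage-negative, Kit+, 2B4+, a4b7+, positive for the Tcf7 reporter and Thy1-. ILCP cells carried Tcf7EGFP/+ and were sorted as lineage-negative, Kit+, 2B4+ and a4b7+, with the Tcf7 reporter, Thy1+ and IL-7Ra+. Every group therefore carried a reporter at 1 Tcf7 allele, although the pooled tag files are named WT in the file headers. The EILP genotype differs from the other 2 stages, so in every comparison with EILP the stage and the genotype cannot be told apart. DNase-seq, which maps DNA that DNase I can cut, was made in 3 libraries a stage from 300 cells each. CUT&RUN for TCF1, which uses an antibody-guided nuclease to release bound DNA, was made in EILP alone, in 6 libraries of 500 cells with 4 IgG libraries. Not all are separate samples: the titles mark 4 of the TCF1 libraries as technical repeats of 2 library numbers and 2 of the IgG libraries as repeats of 1.

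Each stage entered the files as 1 peak list called on its pooled libraries, so the spread between libraries is not in these data and no difference between stages was tested. Filtering by the peak caller kept 12420429 tags in ALP, 11236009 in EILP and 12681410 in ILCP, so that 1 tag at a summit is worth 0.0805, 0.0890 and 0.0789 RPM in that order of stages. Intervals on a ratio are exact conditional binomial intervals at 95% from the 2 tag numbers. Intervals on a share are 95% Wilson intervals, and both cover counting error only. The TCF1 list is much shallower, with 2418839 tags, a median of 5 tags at its summits and 6679 peaks. A region without a TCF1 peak is therefore a region where none was detectable at this depth in EILP, and TCF1 binding in ALP or ILCP was not measured.

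A DHS is a stretch of chromatin where nucleosomes are displaced or loosened, usually at promoters, enhancers or insulators, and the number of cuts in bulk DNase-seq depends both on how many cells have the site open and on how accessible it is in each. ALP are all-lymphoid progenitors, EILP are early innate lymphoid progenitors and ILCP are innate lymphoid cell precursors, which give rise to the helper-type innate lymphoid cells. TCF1, an HMG-box DNA-binding protein encoded by Tcf7, switches on along this path and is needed for normal development of these progenitors. A site that is already open in ALP and grows stronger by ILCP is a graded change, which a list of gained or lost peaks does not record.

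The strengthening regions were weak sites in ALP and middling sites in ILCP. Over the 1574 regions the lowest, median and highest summit heights were 5, 9 and 30 tags in ALP, 5, 15 and 111 tags in EILP and 11, 22 and 75 tags in ILCP. The middle 50% of regions held 7 to 11 tags in ALP, 11 to 19 in EILP and 19 to 27 in ILCP. Across all 36734 shared regions without TCF1 the medians were 17, 17 and 18 tags. On the scale of RPM, the medians in ALP, EILP and ILCP were 0.725, 1.33 and 1.73 for the strengthening regions, 1.85, 1.42 and 0.710 for the weakening regions, and 1.37, 1.51 and 1.42 for all the shared regions. The strengthening regions thus ended only a little above the typical shared site, and the weakening regions began only a little above it. Of the strengthening regions, 71 (4.51%) were among the tallest 10% of shared regions in ILCP, which began at 37 tags, 19 (1.21%) were among the tallest 10% in EILP, and none was among those in ALP.

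**Figure D1:**
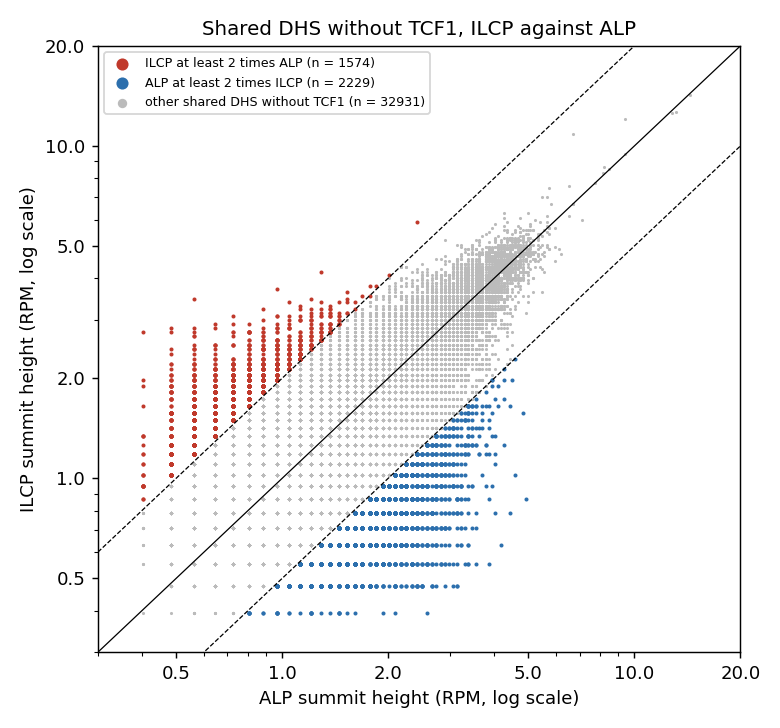
Summit height in ILCP against ALP for the 36734 shared DHS without TCF1, in RPM on log axes, 1 point a region, with the line of equal height and the lines at 2 times in each direction. The 1574 red points (ILCP at least 2 times ALP) lie almost all at low ALP heights, and the tallest sites of both stages lie near the line of equal height.

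The median ILCP to ALP ratio of the strengthening regions was 2.33, with a middle 50% from 2.14 to 2.66 and a highest value of 6.86, beside a median of 1.05 over all shared regions. Most of them lay close to the cutoff: 566 (36.0%) reached 2.5 times, 196 (12.5%) reached 3 times, 32 (2.03%) reached 4 times and 6 (0.381%) reached 5 times. Counting error was wide at these heights, and the median region had an interval from 1.06 to 5.91. The lower bound was above 1 in 975 of the strengthening regions (61.9%), beside 1145 of all shared regions (3.12%), above 1.5 in 96 (6.10%) and above 2 in 14 (0.889%). In the other direction the whole interval lay below 1 in 1737 of all shared regions (4.73%). Since this interval and the choice of regions use the same tags, the counts say how precisely each ratio is known and nothing further.

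The cutoff itself falls between whole tag numbers. Because ILCP was sequenced a little deeper, a region needed 2.04 ILCP tags for each ALP tag to be counted. The 391 regions with exactly 2 ILCP tags for each ALP tag had a ratio of 1.96 and fell outside, while the 340 regions with exactly 2 ALP tags for each ILCP tag had a ratio of 2.04 the other way and were counted as weakening. The 5 strengthening regions just inside the cutoff had 22 ALP and 45 ILCP tags, 20 and 41, and in 3 regions 18 and 37. The 5 regions just outside had 25 ALP and 51 ILCP tags, in 2 regions 27 and 55, and in 2 regions 20 and 40. The regions on either side of the line thus differ by about 1 tag.

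The share of regions that strengthened depended on how many tags a region had. Among regions with 0 to 19 ILCP tags, 480 of 20885 strengthened (2.30%), among those with 20 to 29 tags 829 of 9085 (9.12%), among those with 30 to 39 tags 232 of 3676 (6.31%), and among those with 40 or more 33 of 3088 (1.07%). The interval lay above 1 in 16.2% of the strengthening regions of the lowest class and in 76.2% of the next. It lay above 1 in all 232 and 33 of the highest 2. Class, choice of regions and interval all use the same tags, so these shares follow from the tag numbers. The lowest class is also limited by the lists, as no strengthening region held fewer than 11 ILCP tags. The regions were also grouped by the sum of ALP and ILCP tags, which counts both stages alike. The cutoff does not, since exactly 2 tags to 1 counted as weakening but not as strengthening. The strengthening and weakening shares were 1.83% and 2.96% at 16 to 20 tags and 6.20% and 7.79% at 21 to 30. They were 6.22% and 8.40% at 31 to 45 and 2.03% and 4.65% at 46 to 70. At 71 tags or more only 3 of 3813 regions strengthened (0.0787%) and 14 weakened (0.367%). In each of these classes by tag sum the weakening share was the higher one. The part of the uneven cutoff in this was not tested. At 15 tags or fewer no strengthening region was possible, since every peak held at least 5 tags and strengthening then took 11. At 16 to 20 tags the same minimum leaves little room for either direction. Graded changes past 2 times were rare in both directions among the tallest sites. Relative counting error is also smallest there, and its part in these shares was not tested.

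**Figure D2:**
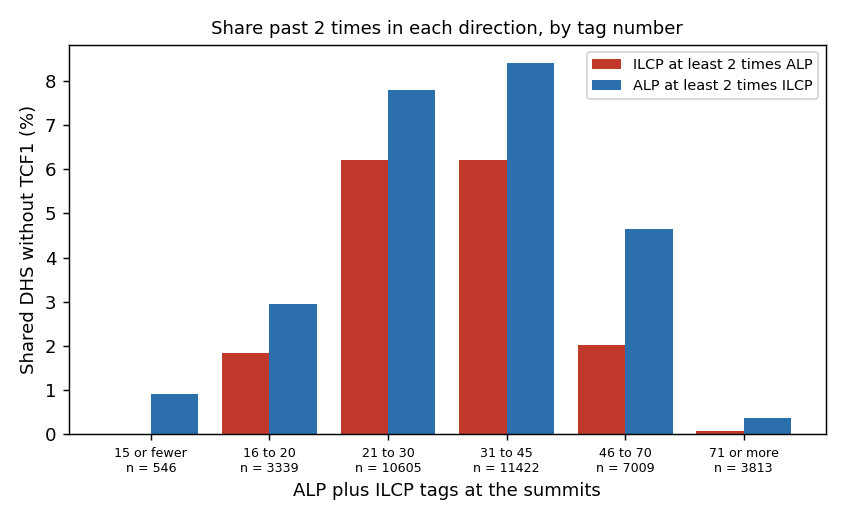
Percent of shared DHS without TCF1 whose ILCP height was at least 2 times the ALP height (red) and whose ALP height was at least 2 times the ILCP height (blue), by the sum of ALP and ILCP tags at the summits, with the number of regions under each class. Both shares peak between 21 and 45 tags and are under 1% at 71 tags or more. Blue is above red in every class, but at 15 tags or fewer the lowest peak height leaves no room for red.

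The 12 strengthening regions with the highest lower bound of the ratio spread over 7 chromosomes. They were picked as extremes of the ratio, a choice that favours high ratios and ALP heights near the lowest found. They held 5 to 9 tags in ALP, 13 to 25 in EILP and 31 to 44 in ILCP, and their ratios ran from 4.24 to 6.86. The region on chromosome 18 at 46540607 to 46541085 came first, with 7 tags in ALP, 21 in EILP and 44 in ILCP and a ratio of 6.16 (interval 2.75 to 16.2). The largest ratio of all, 6.86 (2.67 to 22.4), was at chromosome 1, 39081985 to 39082361, with 5, 13 and 35 tags. Both climbed at each of the 2 steps.

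The region on chromosome 5 at 73143911 to 73144275 had 6, 14 and 36 tags (ratio 5.88, 2.45 to 17.1), and its climb was spread over both steps, with EILP 2.58 times ALP and ILCP 2.28 times EILP. The region on chromosome 12 at 74594976 to 74595432 had 6, 25 and 35 tags (5.71, 2.38 to 16.6), with EILP 4.61 times ALP and ILCP 1.24 times EILP. On chromosome 3 at 38182569 to 38182938 the tags were 7, 25 and 36 (5.04, 2.21 to 13.4). In these regions on chromosomes 12 and 3 most of the climb was already present in EILP.

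Ranks 6 to 9 fell on chromosome 1 at 122142116 to 122142504 with 7, 22 and 35 tags, on chromosome 16 at 96220896 to 96221231 with 6, 15 and 31 tags, on chromosome 16 at 29865192 to 29865761 with 8, 19 and 37 tags, and on chromosome 12 at 17731286 to 17731949 with 7, 19 and 34 tags. Ranks 10 to 12 fell on chromosome 12 at 21486105 to 21486474 with 7, 25 and 34 tags, on chromosome 6 at 108415987 to 108416501 with 9, 19 and 39 tags, and on chromosome 6 at 72943233 to 72943710 with 8, 21 and 36 tags. In all 12 the EILP height in RPM lay between the ALP and ILCP heights and nearer to ILCP on the log2 scale. EILP was nearer to ILCP in 69.6% of all strengthening regions. The chromosome 5 region and the chromosome 1 region with the largest ratio were only just past the middle. Their EILP heights lay 0.54 and 0.55 of the way from ALP to ILCP. The ILCP peak was wider than the ALP peak in all 12, and the merged regions spanned 336 to 664 bp. None had a TCF1 peak within 10 kb, and the nearest was 17.5 kb away. Only 13.0% of all strengthening regions and 15.0% of all shared regions without TCF1 had one within 10 kb. At such shares, none among 12 regions does not set them apart. By fold enrichment in place of RPM, the ratios of these 12 were lower, at 2.39 to 4.08, and all stayed above 2.

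**Figure D3:**
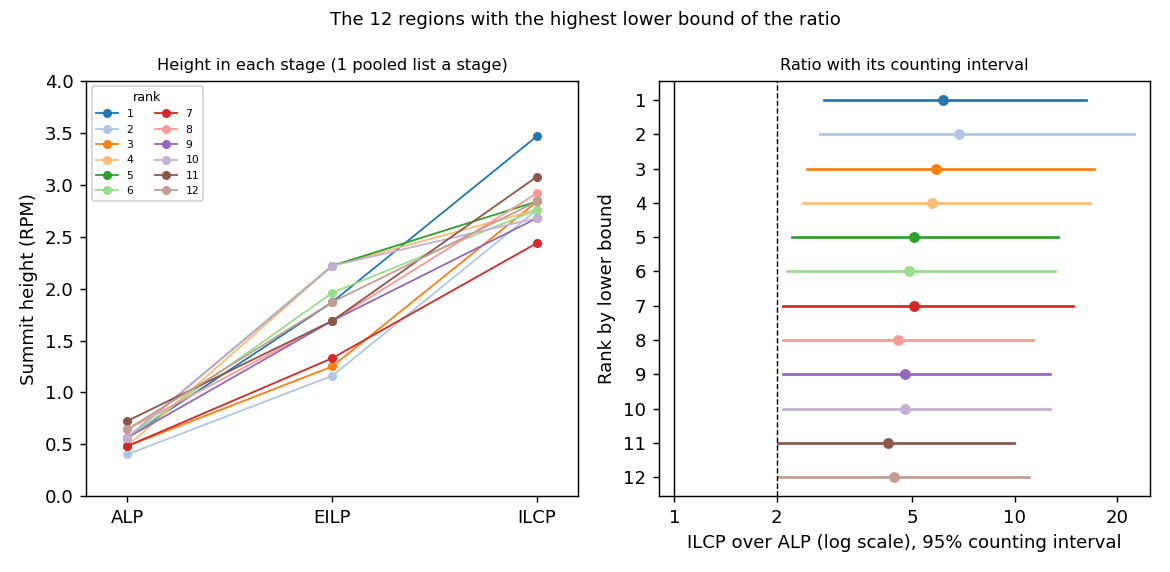
Left, summit height in RPM in ALP, EILP and ILCP for the 12 strengthening regions with the highest lower bound of the ILCP to ALP ratio; right, that ratio on a log axis with its 95% counting interval, by rank. All 12 climb at both steps. The 12 were chosen by the lower bound, which lay above 2 in 14 strengthening regions. That all 12 intervals lie above 2 therefore follows from the choice.

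The 8 strengthening regions that were tallest in ILCP were a separate group, with no region in common with those 12. They held 12 to 30 tags in ALP, 18 to 111 in EILP and 45 to 75 in ILCP, and their ratios were lower, at 2.00 to 3.84. The tallest, on chromosome 11 at 3057441 to 3058042, had 30, 111 and 75 tags and a ratio of 2.45 (1.58 to 3.87). It also stood apart by its surroundings: the local background that the peak caller used there came to 13.3, 14.6 and 14.9 tags in ALP, EILP and ILCP, beside medians of 0.75, 0.86 and 1.12 tags over all strengthening regions, and it was the only strengthening region with a background over 10 tags. The part of this background in its height was not tested.

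By fold enrichment the ratios of the 8 were 1.61 to 2.96, and 5 of them fell under 2. Under median scaling they were 1.92 to 3.68, and 3 fell under 2. For that scaling each height was taken relative to the region's mean over the stages. Each stage was then divided by the median of these values over shared regions. The 7 regions other than that on chromosome 11 had backgrounds of at most 3.76 tags. On chromosome 5 at 36015743 to 36016164 the tags were 16, 30 and 53 (ratio 3.24, 1.83 to 6.08), and on chromosome 12 at 86611277 to 86611715 they were 12, 18 and 47 (3.84, 2.00 to 7.94). In the region on chromosome 12 most of the climb came after EILP, with EILP 1.66 times ALP and ILCP 2.31 times EILP. On chromosome 2 at 79095256 to 79096014 the tags were 23, 46 and 48, and the climb was complete in EILP. The remaining 4 were on chromosome 4 at 134409181 to 134409647 with 25, 30 and 52 tags, on chromosome 12 at 40764511 to 40764921 with 22, 33 and 48, on chromosome 9 at 88274966 to 88275270 with 19, 32 and 46, and on chromosome 10 at 41777089 to 41777439 with 22, 36 and 45. A TCF1 peak lay within 10 kb of 3 of the 8, at 0.486 kb for the chromosome 9 region, 0.669 kb for the chromosome 2 region and 9.65 kb for the chromosome 12 region with 47 ILCP tags. The share was 13.0% over all strengthening regions and 15.0% over all shared regions without TCF1, and 8 regions are too few to compare with it.

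The EILP height did not enter the ratio, but every region had to hold an EILP peak, so EILP heights under 5 tags, the lowest found, are cut off and heights below ALP are less likely to be seen. Because the regions were chosen with low ALP and high ILCP heights, a value in between is what that choice favours even for a site whose true height did not change, so an intermediate EILP value by itself is not a finding. EILP was between ALP and ILCP in 1228 strengthening regions (78.0%, 75.9 to 80.0, beside 36.9% of all shared regions), above ILCP in 281 (17.9%, beside 58.1% of all shared regions) and below ALP in 65 (4.13%, beside 37.4%). The median EILP to ALP ratio was 1.84 and the median ILCP to EILP ratio 1.33, beside 1.11 and 0.941 over all shared regions. EILP was at least 2 times ALP in 629 (40.0%, 37.6 to 42.4; 4.61% of all shared regions), and ILCP was at least 2 times EILP in 159 (10.1%, 8.71 to 11.7; 1.37% of all). Only 3 regions passed 2 times at both steps, and 789 (50.1%, beside 94.0% of all) passed it at neither step alone. At 1.5 times, the first step was passed by 1149 (73.0%, beside 17.1%) and the second by 553 (35.1%, beside 7.79%).

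On the log2 scale from the ALP height (position 0) to the ILCP height (position 1), the median EILP position was 0.69, with a middle 50% from 0.44 to 0.92. EILP was nearer to ILCP than to ALP in 1095 strengthening regions (69.6%, 67.2 to 71.8, beside 49.7% of all shared regions). In the weakening regions the median position was 0.26 on the same scale, so EILP was nearer to ALP there, with EILP 0.780 times ALP and ILCP 0.498 times EILP at the median. Choosing 1 low and 1 high height by itself places a middle value towards the taller stage on a log scale: the plain mean of the ALP and ILCP heights would sit at a median position of 0.60 in the strengthening and 0.39 in the weakening regions. The EILP list was higher than ALP by 1.11 times at the median over all shared regions. With the median scaling described above, the median positions became 0.60 for the 1309 regions that then strengthened and 0.35 for the 2521 that then weakened. After that scaling EILP was 1.67 times ALP and ILCP 1.41 times EILP at the median of the strengthening regions, and the median EILP position was that of the plain mean, 0.60, in the strengthening regions and close to it, 0.35 beside 0.39, in the weakening regions. The side on which EILP lay is therefore a description of the chosen regions and not a result on the timing of the change.

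**Figure D4:**
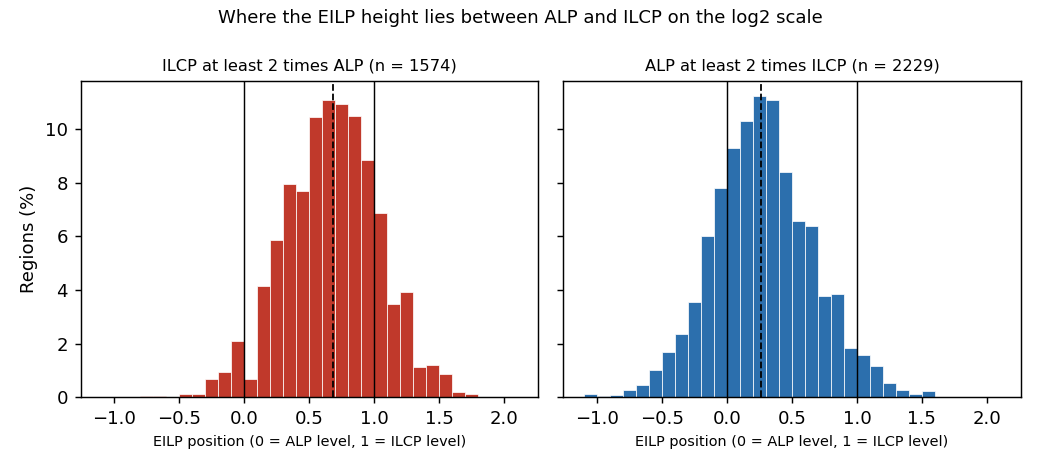
Percent of regions by the position of the EILP height between the ALP height (0) and the ILCP height (1) on the log2 scale, for the 1574 strengthening regions (left) and the 2229 weakening regions (right), with a dashed line at the median. The medians are 0.69 and 0.26, and 281 strengthening regions lie beyond 1 with EILP above ILCP.

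The position of EILP differed between classes of ILCP height. ILCP tags set both these classes and the position, so a low ILCP height by itself favours EILP above ILCP. The values below therefore only describe the classes. EILP was above ILCP in 26.7% of the strengthening regions with 0 to 19 ILCP tags, in 15.2% with 20 to 29, in 9.48% with 30 to 39 and in 15.2% of the 33 with 40 or more, and the median positions were 0.78, 0.65, 0.66 and 0.67. Among regions with at least 20 ILCP tags, EILP stood highest relative to ILCP at the chromosome 11 region described above, then on chromosome 8 at 8593856 to 8594269 with 9, 32 and 23 tags, and on chromosome 19 at 32943716 to 32944147 with 9, 37 and 27 tags. In RPM these sites were tallest in EILP, at 3.93 and 4.54 times ALP for the regions on chromosomes 8 and 19. They were picked as extremes, and no counting interval was worked out for EILP against ILCP.

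At the other end, EILP stood lowest relative to ALP on chromosome 15 at 79039494 to 79039870 with 17, 9 and 37 tags, on chromosome 10 at 93281455 to 93281686 with 14, 8 and 30 tags, and on chromosome 6 at 100264199 to 100264461 with 13, 8 and 29 tags. Here EILP stood at 0.585, 0.632 and 0.680 times ALP, and ILCP at 3.64, 3.32 and 3.21 times EILP. These regions too were picked as extremes, at few EILP tags, and no counting interval was worked out for their EILP ratios. In these 3 regions the ALP and ILCP summits were within 10 bp of each other. Whether the EILP genotype has a part in such low EILP values cannot be told apart from the stage.

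The strengthening regions were of ordinary size. Their merged width had a median of 294 bp (122 to 938), beside 331 bp for the weakening regions and 283 bp for all shared regions, and 831 of them (52.8%, 50.3 to 55.3) were wider than that overall median. The width of the single peaks moved with their height: the highest peak had a median width of 163 bp in ALP, 219 bp in EILP and 255 bp in ILCP, beside 218, 222 and 219 bp over all shared regions. A single peak of each list made up 1515 of the strengthening regions (96.3%), beside 95.2% of all shared regions. Few therefore joined several peaks of 1 list. The peaks of different lists matched less closely: at 50% reciprocal overlap of the ALP and ILCP peaks, 1106 of the 1574 remained, beside 32277 of all 36734.

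The summit also stayed largely in place. The ILCP and ALP summits were a median of 24 bp apart in the strengthening regions, 37 bp in the weakening regions and 19 bp over all shared regions. They lay within 50 bp of each other in 1119 strengthening regions (71.1%, 68.8 to 73.3), beside 76.6% of all shared regions. The ILCP and EILP summits were within 50 bp in 1252 (79.5%, 77.5 to 81.5), beside 62.3% of the weakening regions and 78.1% of all shared regions. The ALP summit, which lay farther from the ILCP summit than the EILP summit did, was also the one with the fewest tags, and the part of the tag number in this was not tested. Borderline calls were concentrated where the height was low: 27 ALP peaks of the strengthening regions (1.72%) had a q-value over 0.01 in the deposited list, of 46 (0.125%) among all shared regions, and none of their EILP or ILCP peaks did. The ALP height, which is low by choice, moves with that q-value.

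The tag level around the sites differed in the same direction as the summit. The local background of the peak caller, worked out from the deposited fold enrichment, had medians of 0.75, 0.86 and 1.12 tags in ALP, EILP and ILCP for the strengthening regions, 1.24, 1.02 and 0.84 for the weakening regions, and 1.08, 1.04 and 1.11 for all shared regions. In RPM, the ILCP to ALP ratio of the background was 1.31, 0.713 and 1.00 at the median of those 3 groups. The background was at the genome-wide floor in 566 strengthening regions in ALP (36.0%), 267 in EILP (17.0%) and 125 in ILCP (7.94%), beside 15.6% of all shared regions in ALP and 14.0% in ILCP. The background window spans 10 kb and includes the tags of the peak itself, so a taller peak raises it, and the 2 contributions were not separated. With the fold enrichment in place of the RPM, 786 regions strengthened by at least 2 times, 734 of them among the 1574.

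Every chromosome held strengthening regions. On the autosomes the share of shared regions without TCF1 that strengthened ran from 3.80% on chromosome 5 (91 of 2392, 3.11 to 4.65) to 5.09% on chromosome 12 (74 of 1453, 4.08 to 6.35), and was 4.32% (4.11 to 4.53) over all of them. These intervals overlap. The X chromosome had 18 of 681, or 2.64% (1.68 to 4.14), so its interval only just reaches the autosomal one, and it also had the smallest weakening share, at 2.79%. Its median ILCP to ALP ratio, 1.04, was close to the autosomal 1.05.

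Most strengthening regions had no other within 20 kb. Joining regions up to 20 kb apart gave 1462 single regions, 53 pairs and 2 runs of 3, both on chromosome 19. The first run comprised 5389654 to 5390122 with 10, 18 and 29 tags in ALP, EILP and ILCP, 5406788 to 5406909 with 7, 15 and 15 tags, and 5407220 to 5407437 with 8, 23 and 17 tags. The second comprised 47895715 to 47895890 with 9, 14 and 21 tags, 47903418 to 47903670 with 9, 20 and 24, and 47911672 to 47912042 with 11, 34 and 31. In the first run 2 of the 3 sites were taller in EILP than in ILCP on the RPM scale, and in the second 1 of 3 was. The lower bounds of the ILCP to ALP ratio were 1.35, 0.805 and 0.851 in the first run. They were 1.00, 1.17 and 1.35 in the second, so not every site was resolved from counting error. By fold enrichment the ratios were 2.36, 1.71 and 1.70 in the first run and 1.38, 2.09 and 2.00 in the second.

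Of the 2133 windows of 1 Mb that held a shared region without TCF1, 573 held 1 strengthening region, 268 held 2, 103 held 3, 24 held 4 and 12 held 5, which was the most. Relative to the regions present, the densest of these 12 windows was on chromosome 4 from 6000001 to 7000000 with 5 of 18 shared regions (27.8%) and 2 weakening regions. It was followed by chromosome 1 from 43000001 to 44000000 with 5 of 22 (22.7%) and no weakening region, and by chromosome 10 from 95000001 to 96000000 with 5 of 25 (20.0%) and 1 weakening region. The least dense was on chromosome 19 from 5000001 to 6000000, with 5 of 80 (6.25%). Over all shared regions without TCF1 the share was 4.28%. The 12 windows were picked as extremes, which favours high shares where few shared regions are present.

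At short range, neighbouring sites more often differed between ILCP and ALP in the same direction than in opposite ones. Another strengthening region lay within 10 kb of 57 strengthening regions (3.62%), of 1.57% of the weakening regions and of 2.50% of all shared regions. A weakening region lay within 10 kb of 35 strengthening regions (2.22%), of 7.63% of the weakening regions and of 3.87% of all. Another shared region without TCF1, of whatever ratio, lay within 10 kb of 671 strengthening regions (42.6%), of 48.5% of weakening regions and of 51.4% of all.

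The ratios of the neighbours themselves showed the same. Over the 182 pairs of a strengthening region with another shared region within 2 kb, the median ILCP to ALP ratio of the neighbour was 1.18, and 22 neighbours (12.1%) were themselves strengthening and 4 (2.20%) weakening. A pair of 2 strengthening regions enters here from either side. Around weakening regions the neighbours' median was 0.837, with 1.59% strengthening and 19.8% weakening, and around all shared regions it was 1.05, with 2.75% and 3.81%. At 2 to 5 kb the medians were 1.10, 0.881 and 1.03, at 5 to 10 kb they were 1.08, 0.979 and 1.03, and at 10 to 20 kb they were 1.03, 0.979 and 1.04. The share of neighbours that strengthened was still 5.18% around strengthening regions, 3.43% around weakening regions and 3.79% around all at 10 to 20 kb, and 5.02%, 4.03% and 3.99% at 20 to 50 kb. When the fold enrichment took the place of the height, none of the 62 pairs within 2 kb was strengthening (upper bound 5.83%), beside 0.937% over all pairs. With only 62 pairs, this count cannot tell whether the excess seen by height is also present by fold enrichment. Neighbours within 2 kb share much of the 10 kb background that the fold enrichment divides by, and the part of this in the difference was not tested.

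**Figure D5:**
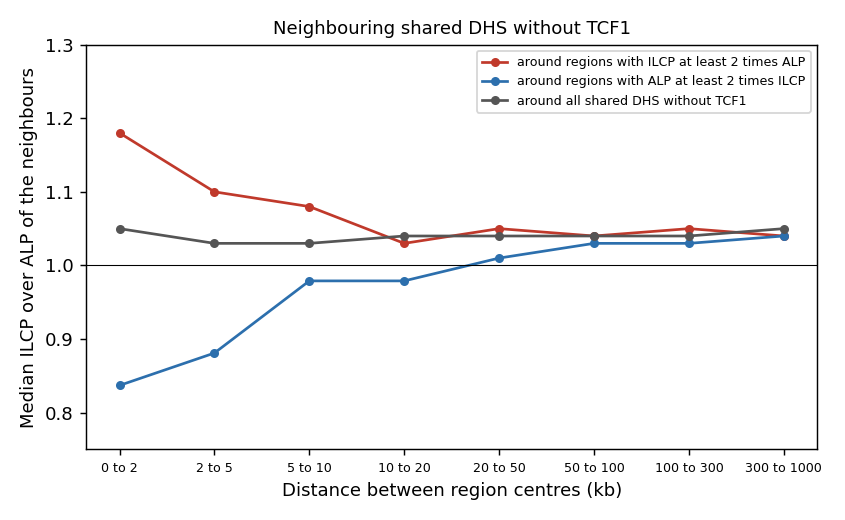
Median ILCP to ALP ratio of neighbouring shared DHS without TCF1, by the distance between region centres in kb, around the strengthening regions (red), the weakening regions (blue) and all shared DHS without TCF1 (grey). Within 2 kb the medians are 1.18, 0.837 and 1.05, and the red line meets the grey one at 10 to 20 kb.

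Sites that were open in fewer stages lay around the strengthening regions about as often as around other shared regions. A DHS found in ILCP alone was within 10 kb of 407 strengthening regions (25.9%), 28.1% of weakening regions and 25.6% of all shared regions. A DHS of EILP and ILCP without ALP was within 10 kb of 285 (18.1%), 16.7% and 16.1%. Sites without an ILCP peak were near fewer strengthening than weakening regions: a DHS found in ALP alone was near 303 strengthening regions (19.3%), 23.9% of weakening and 20.2% of all shared regions, and a DHS of ALP and EILP without ILCP was near 247 (15.7%), 22.4% and 18.1%. Relative to all shared regions these 4 shares differed by at most a few percentage points. An ILCP-only DHS was also near a smaller share of strengthening than of weakening regions. The same held for another shared region without TCF1 (42.6% and 48.5%), so this was not particular to sites without an ILCP peak.

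A TCF1 peak lay within 10 kb of 204 strengthening regions (13.0%), of 13.7% of the weakening regions and of 15.0% of all shared regions without TCF1. The median distance to the nearest TCF1 peak was 71.8 kb for the strengthening regions, 61.5 kb for the weakening regions and 63.6 kb for all. The strengthening regions were therefore not closer to the detected TCF1 peaks of EILP than shared regions at large. These shares describe the TCF1 sites that could be called at the depth of that list.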

How the data were processed

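The 21 mouse samples were grouped by their labels: 3 DNase-seq libraries each of ALP, EILP and ILCP, and for EILP 6 TCF1 and 4 IgG CUT&RUN libraries, technical repeats included. A further 2 libraries have TCF1 in the title and IgG in the description. They were left without a group, and per the file headers the pooled TCF1 control includes their library number. All 4 deposited files are peak lists, and each pools its libraries. Per the file headers, the lists come from MACS (2.1.1.20160309), run by the authors with q below 0.05, fragments of 100 bp, tags of 50 bp and no more than 1 tag a position. DNase tags were shifted by 50 bp with a 10 kb background window and no control, and the TCF1 control held 2919489 tags, per the file headers. Positions are on mm9, the build named in the submitters' processing notes. The aligner is not given in the sources used here. The deposited pileup signal counts extended tags at the summit. The deposited fold enrichment was read as the authors' ratio of the pileup with 1 added to the local background with 1 added, and that relation gave the background. The −log10 q-values were used as deposited, for filters only, and the deposited peak length in bp gave the widths.

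Regions were merged at 1 bp overlap and compared by pileup in RPM, without a pseudocount. Since each list pools its libraries, no test was run. Regions were named by rule: the 12 highest lower bounds of the ratio, the 8 highest ILCP heights, 5 just inside and 5 just outside the cutoff, the 3 highest and 3 lowest EILP values among regions with at least 20 ILCP tags, and the 1 Mb windows with the most regions. The rule asked for 5 windows, but 12 tied, and 4 of them are given. The runs of 3 were named after their values were seen. The regions and lists were chosen with earlier results of these data known. Regions are given by mm9 position alone: nearby genes, promoters, motifs and sequences were planned and not analysed here, because no mm9 annotation or genome was used. Python 3.11.15, pandas 2.3.3, numpy 2.4.6, scipy 1.17.1 and matplotlib 3.10.9 were used, and the code was tested on simulated data. Alternatives changed the cutoff, scaling, height measure, matching of peaks, low-value filters, q cutoff, TCF1 exclusion and chromosomes.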

Additional observations from a re-analysis of the deposited data

How the results depend on the processing

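No paired analysis was possible because each list pools the libraries of its stage, and for the same reason no library could be left out. Of 16 alternatives for the strengthening count of 1574, 11 stayed within 1.5 times of it (1106 to 1639). The others gave 5657 at 1.5 times, 196 at 3 times, 786 by fold enrichment, 920 with at least 30 ALP and ILCP tags and 975 with an interval above 1. The weakening count of 2229 became 5259 at 1.5 times, 506 at 3 times, 1087 by fold enrichment, 1363 with peaks matched at 50% reciprocal overlap and 1406 with at least 30 tags. Strengthening regions were fewer than weakening ones under 15 of the 16, the exception being the 1.5 times cutoff. The share of strengthening regions with EILP nearer to ILCP, 69.6%, stayed inside its interval under 11 of 16 alternatives and was 64.5% at 1.5 times, 73.5% at 3 times, 62.5% with median scaling, 61.5% by fold enrichment and 67.0% with reciprocal overlap. Of the strengthening regions, 65.4% had an ILCP peak wider than the median ILCP peak of all shared regions and 20.7% an ALP peak wider than the median ALP peak, beside 52.8% by merged width. Within 5 kb and 50 kb, the shares were 2.29% and 15.6% for another strengthening region, 0.699% and 15.9% for a weakening one, 13.6% and 72.7% for an ILCP-only DHS, and 7.50% and 40.5% for a TCF1 peak, as a wider reach takes in more sites. All 80 ratios of named regions under median scaling or fold enrichment lay inside the wide counting interval of the reported ratio, but fold enrichment took the 12 highest lower bounds to 2.39 to 4.08, from 4.24 to 6.86, and 5 of the 8 tallest regions under 2. The fullest window held 7 regions at 2 Mb and 6 when windows were moved by 500 kb. Alternatives chosen after seeing the data were those of the weakening count, the windows, the neighbour ratios, the removal of high background (1573 regions) and EILP where the ALP and ILCP summits lay within 50 bp (69.8%). The cause of each change was not tested, except where fewer regions entered. Depth limits the ratios: the lower bound was above 1 in 61.9% of the strengthening regions and above 1.5 in 6.10%.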
